A study of Mus musculus with 10 samples.

Results

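The 10 genes described here carry the signal of transforming growth factor beta (TGF-beta) from its ligand to the nucleus, and they were chosen by symbol from the 55453 genes of the count table. They are the ligand *Tgfb1*, its milieu molecule *Nrros*, the receptors *Tgfbr1* and *Tgfbr2*, the signal transducers *Smad2*, *Smad3* and *Smad4*, and the inhibitors *Smad7*, *Ski* and *Skil*. All 10 were found in the table and all 10 passed the filter on low counts, which left 14481 genes to test. RNA was sequenced from microglia, the resident macrophages of the brain, which had been sorted as CD45int CD11b+ cells from the hippocampi of female 3xTg mice older than 15 months. The alleles of these mice include mutant human APP and MAPT transgenes driven by the neuronal Thy1.2 promoter, so that both treatment groups share them and no group without them was sequenced here. The study's methods describe the animals as retired breeders. One group of 5 libraries came from mice treated for about 8 weeks with glatiramer acetate (GA), a synthetic polypeptide mixture used against multiple sclerosis, in doses of 0.1 mg that were weekly after a first week with more than one injection, and the other 5 libraries came from mice given phosphate-buffered saline (PBS). Libraries are numbered 1 to 5 within a group. The titles of all PBS libraries begin with 388, those of GA libraries 1 and 2 with 394 and those of GA libraries 3, 4 and 5 with 400, so a difference between prefix 388 and the others cannot be told apart from that of treatment, while 394 and 400 can be compared within GA.

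TGF-beta is made as a latent complex in which a propeptide encloses the mature cytokine. In myeloid cells the complex is held by NRROS, and its release lets the ligand bring a type II receptor (TGFBR2) together with a type I receptor (TGFBR1), which phosphorylates SMAD2 and SMAD3. These enter the nucleus with SMAD4 and switch genes on or off, while SMAD7 blocks the receptor and SKI and SKIL (SnoN) hold back the Smads on DNA. In microglia this pathway is known to be needed for the homeostatic state, and loss of its ligand, receptor or NRROS changes that state.

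Total counts per library ran from 32332185 to 38764643, and a member was counted between 1658 and 96535 times in a library. These are reads of amplified cDNA without molecular identifiers, so their number does not measure the counting error. Microglial markers summed to 48734 to 58668 CPM (TMM-normalized counts scaled to library size) with PBS and to 50361 to 54245 CPM with GA, and all 8 of these markers passed the filter. Markers of neutrophils, which carry more CD45 than the CD45int gate is set for, summed to 35.6 to 435 CPM with PBS and 9.68 to 162 CPM with GA (two-sided exact permutation test, *P* = 0.0794), and 6 of the 7 had an unadjusted p-value under 0.05 in edgeR's test, all 6 lower with GA. Markers of border-associated macrophages reached their highest sum, 246 CPM, in PBS library 4, against at most 141 CPM in the other PBS libraries. With GA they summed to 47.3 to 185 CPM, with the highest of these sums in GA library 4. Monocyte markers also had their highest sum in PBS library 4, with 63.0 CPM against at most 48.5 CPM in the other PBS libraries. Of the 6 monocyte markers, 2 had an unadjusted p-value under 0.05 in edgeR's test, both lower with GA, as did 5.75% of all genes tested in either direction. The sum of the 6 ran from 31.9 to 63.0 CPM with PBS and from 34.1 to 43.9 CPM with GA (two-sided exact permutation test, *P* = 0.587). Of the endothelial markers, *Slco1a4* was at 0 in every library, and the list summed to 37.1 to 50.2 CPM with PBS and 34.4 to 49.0 CPM with GA. T and NK cell markers summed to less than 1 CPM in every library. The part of these other cells in the values below was not tested, and in bulk RNA fewer cells of a type and less RNA per cell cannot be told apart.

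Promoter sequences are given for the 2 receptors, whose ratio was higher in the GA libraries of prefix 400 than in all other libraries, and for *Nrros*, whose level varied most between PBS libraries among the members by coefficient of variation. Each run holds the 250 bases before the start site in RefSeq on GRCm38.p6, and capitals mark the letters CAGAC or their reverse complement GTCTG, a short box that Smad proteins bind. This box was found in 3 of the 7 windows that RefSeq gave for 6 members (*Tgfb1*, *Nrros*, *Tgfbr1*, *Tgfbr2*, *Smad3* and *Ski*), while 42.2% of 32851 windows of the same length over all genes hold it. The longer palindrome GTCTAGAC was in none of the 7 and in 0.167% of all windows. A match is a description of the letters and not of binding.
Tgfbr1, chr4:47352972-47353221, plus strand: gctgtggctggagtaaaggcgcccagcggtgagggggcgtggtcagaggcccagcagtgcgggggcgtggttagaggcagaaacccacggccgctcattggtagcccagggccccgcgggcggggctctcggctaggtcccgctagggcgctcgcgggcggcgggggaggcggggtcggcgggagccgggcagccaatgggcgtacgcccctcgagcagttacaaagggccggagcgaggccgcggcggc
Tgfbr2, chr9:116175364-116175613, minus strand: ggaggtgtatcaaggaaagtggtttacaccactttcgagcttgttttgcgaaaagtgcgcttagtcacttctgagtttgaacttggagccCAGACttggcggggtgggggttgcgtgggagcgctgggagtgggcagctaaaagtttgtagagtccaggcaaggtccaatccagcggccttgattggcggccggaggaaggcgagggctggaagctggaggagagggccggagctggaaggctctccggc
Nrros, chr16:32165595-32165844, minus strand: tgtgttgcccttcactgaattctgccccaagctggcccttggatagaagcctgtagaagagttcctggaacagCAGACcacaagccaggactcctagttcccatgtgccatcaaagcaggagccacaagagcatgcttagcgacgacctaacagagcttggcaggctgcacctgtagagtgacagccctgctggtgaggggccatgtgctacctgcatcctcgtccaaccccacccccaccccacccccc
In *Tgfbr2* the box begins 160 bases before the start site and in *Nrros* 177 bases before it. The window of *Tgfbr1* shown here holds none, and a window of a second annotated start site of *Tgfbr1*, at chr4:47385966-47386215, holds one.

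The first comparison asked whether GA changed the level of any member. None of the 10 differed between GA and PBS in edgeR's quasi-likelihood F-test with Benjamini-Hochberg adjustment over all 14481 genes (adjusted p-values 0.921 to 0.992), where 0% of all genes tested were called. DESeq2 and limma-voom also called 0 members. At an unadjusted p-value under 0.05, edgeR found 0 of the 10 members and 833 of all genes tested (5.75%). The libraries of both groups overlapped for every member, and they did not overlap for 0.891% of all genes tested. The estimate was higher with GA for 7 members and lower for 3, with log2 fold changes from -0.09 for *Nrros* to 0.12 for *Smad7* and a median of 0.059, against a median of 0.0002 over all genes tested. This shift rested on single PBS libraries. Without PBS library 4 the members' median was 0.0044, with 5 estimates higher and 5 lower, and without PBS library 5 it was 0.11, with 9 higher and 1 lower. The 95% intervals bound how large a difference these libraries leave room for, and over the 10 members they reached from 20.9% lower, for *Nrros*, to 28.6% higher, for *Smad7*.

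**Figure D1:**
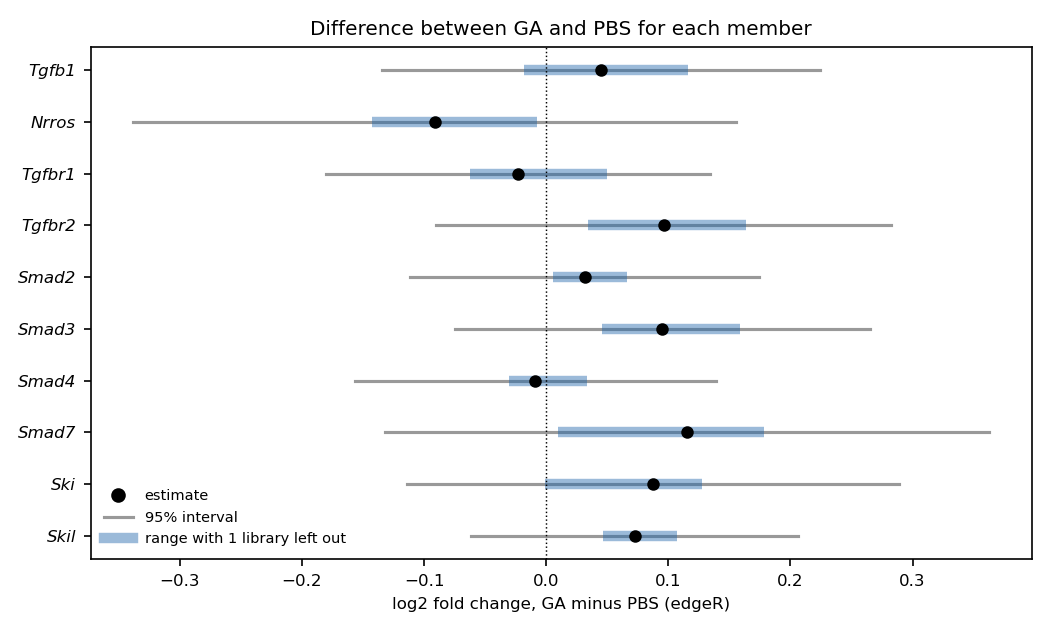
Log2 fold change of GA against PBS for each member in edgeR's fit (points, n = 5 libraries per group) with its 95% interval (grey) and the range of the estimate on leaving out single libraries (blue). Each of the 10 grey intervals includes 0, and the estimates lie between -0.09 and 0.12.

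*Tgfb1* (ENSMUSG00000002603.15, GRCm38 chr7:25687002-25705077, plus strand), the one of the 3 TGF-beta ligand genes with a substantial level in these cells, was measured at 214, 204, 196, 168 and 242 CPM in PBS libraries 1 to 5 and at 215, 216, 201, 221 and 204 CPM in GA libraries 1 to 5. The lowest and the highest value both belonged to PBS libraries, 4 and 5, and all GA libraries lay between them. The group means were 205 ± 27.0 CPM across PBS and 211 ± 8.44 CPM across GA libraries (SD, n = 5 each), and the log2 fold change was estimated at 0.04 (standard error 0.08, 95% interval -0.13 to 0.22; two-sided exact permutation test, *P* = 0.579), which was -0.018 without PBS library 4 and 0.12 without PBS library 5. *Nrros* (ENSMUSG00000052384.14, chr16:32142785-32165594, minus strand), also known as LRRC33, anchors latent TGF-beta on myeloid cells. It had 639, 460, 457, 656 and 465 CPM in PBS libraries 1 to 5 and 517, 554, 527, 496 and 419 CPM in GA libraries 1 to 5. PBS libraries 1 and 4 stood above all other libraries, and the other 3 PBS libraries lay below 4 of the 5 GA libraries. The means were 535 ± 102 CPM across PBS and 503 ± 51.2 CPM across GA libraries (SD, n = 5 each), and the log2 fold change was estimated at -0.09 (standard error 0.12, 95% interval -0.34 to 0.16; exact permutation test, *P* = 0.571), which was -0.0077 without PBS library 4.

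The receptors had the highest CPM of the members, before correction for length. *Tgfbr1* (ENSMUSG00000007613.15, chr4:47353222-47414931, plus strand), the type I receptor kinase, had 2149, 2281, 2230, 2153 and 2736 CPM in PBS libraries 1 to 5 and 2519, 2285, 2191, 2243 and 2126 CPM in GA libraries 1 to 5. PBS library 5 and GA library 1 were high, and the remaining 8 libraries lay within 2126 to 2285 CPM. The log2 fold change was -0.02 (standard error 0.07, 95% interval -0.18 to 0.13; exact permutation test, *P* = 0.786), and it was 0.050 without PBS library 5, 0.0004 without GA library 5 and -0.062 without GA library 1. *Tgfbr2* (ENSMUSG00000032440.13, chr9:116084293-116175360, minus strand), the type II receptor that binds the ligand first, had 1054, 989, 1054, 850 and 1208 CPM in PBS libraries 1 to 5 and 1012, 1027, 1149, 1240 and 1084 CPM in GA libraries 1 to 5. The lowest value was in PBS library 4, and the GA libraries of prefix 400 lay above those of prefix 394. The log2 fold change was 0.10 (standard error 0.09, 95% interval -0.09 to 0.28; exact permutation test, *P* = 0.357), and it was 0.034 without PBS library 4 and 0.16 without PBS library 5.

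Among the Smads that pass the signal on, *Smad3* (ENSMUSG00000032402.12, chr9:63646767-63757994, minus strand) had 126, 114, 130, 107 and 144 CPM in PBS libraries 1 to 5 and 131, 137, 124, 138 and 132 CPM in GA libraries 1 to 5. All GA values fell inside the PBS range, and the log2 fold change was 0.09 (standard error 0.08, 95% interval -0.07 to 0.26; exact permutation test, *P* = 0.246). Without PBS library 4 it was 0.045 (unadjusted *P* = 0.539 in edgeR). Without PBS library 5 it was 0.16 (unadjusted *P* = 0.0438 in edgeR), the single fit among 18 alternatives in which any member passed 0.05 before adjustment. *Smad2* (ENSMUSG00000024563.16, chr18:76241580-76310963, plus strand), the other receptor-regulated Smad of this branch, ran from 68.4 to 80.8 CPM with PBS and from 72.9 to 79.5 CPM with GA, with means of 73.8 ± 5.08 CPM across PBS and 75.4 ± 2.75 CPM across GA libraries (SD, n = 5 each). *Smad4* (ENSMUSG00000024515.13, chr18:73639009-73703780, minus strand), the common partner, ran from 103 to 119 CPM with PBS and from 96.6 to 114 CPM with GA, and its log2 fold change of -0.01 (standard error 0.07) was the nearest to 0 of all members. A processed pseudogene on the opposite strand, AC132418.2, lies within *Smad4* and shares 0 exon bases with it, and no other gene of GENCODE M21 overlaps a member.

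The 3 inhibitors each had a higher estimate with GA, and PBS library 4 set much of that difference for *Smad7* and *Ski*. *Smad7* (ENSMUSG00000025880.11, chr18:75367529-75395935, plus strand), a feedback inhibitor that Smad3 itself induces, had 78.6, 71.1, 82.3, 51.4 and 85.8 CPM in PBS libraries 1 to 5 and 72.0, 83.0, 79.4, 86.3 and 79.1 CPM in GA libraries 1 to 5. One PBS library, number 4, was far below the rest, and the remaining 4 PBS libraries spanned the GA values except that of GA library 4. The log2 fold change was 0.12 (standard error 0.12, 95% interval -0.13 to 0.36; exact permutation test, *P* = 0.429), and it was 0.01 without PBS library 4 and 0.18 without PBS library 5. *Ski* (ENSMUSG00000029050.15, chr4:155154075-155222592, minus strand), a corepressor of the Smad complex, had 546, 481, 541, 368 and 530 CPM in PBS libraries 1 to 5 and 528, 494, 515, 558 and 524 CPM in GA libraries 1 to 5. Its log2 fold change of 0.09 (standard error 0.09; exact permutation test, *P* = 0.532) was -0.0012 without PBS library 4. *Skil* (ENSMUSG00000027660.16, chr3:31095058-31122577, plus strand), the related corepressor, was not low in that library, with 249, 245, 253, 255 and 277 CPM in PBS libraries 1 to 5. Its GA libraries 1 to 5 had 255, 270, 278, 292 and 250 CPM, of which 2 lay above the highest PBS library. *Skil* had the smallest permutation p-value of the members (0.190, two-sided exact test), and the log2 fold change was estimated at 0.07 (standard error 0.06, 95% interval -0.06 to 0.21), and 0.047 without GA library 4.

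**Figure D2:**
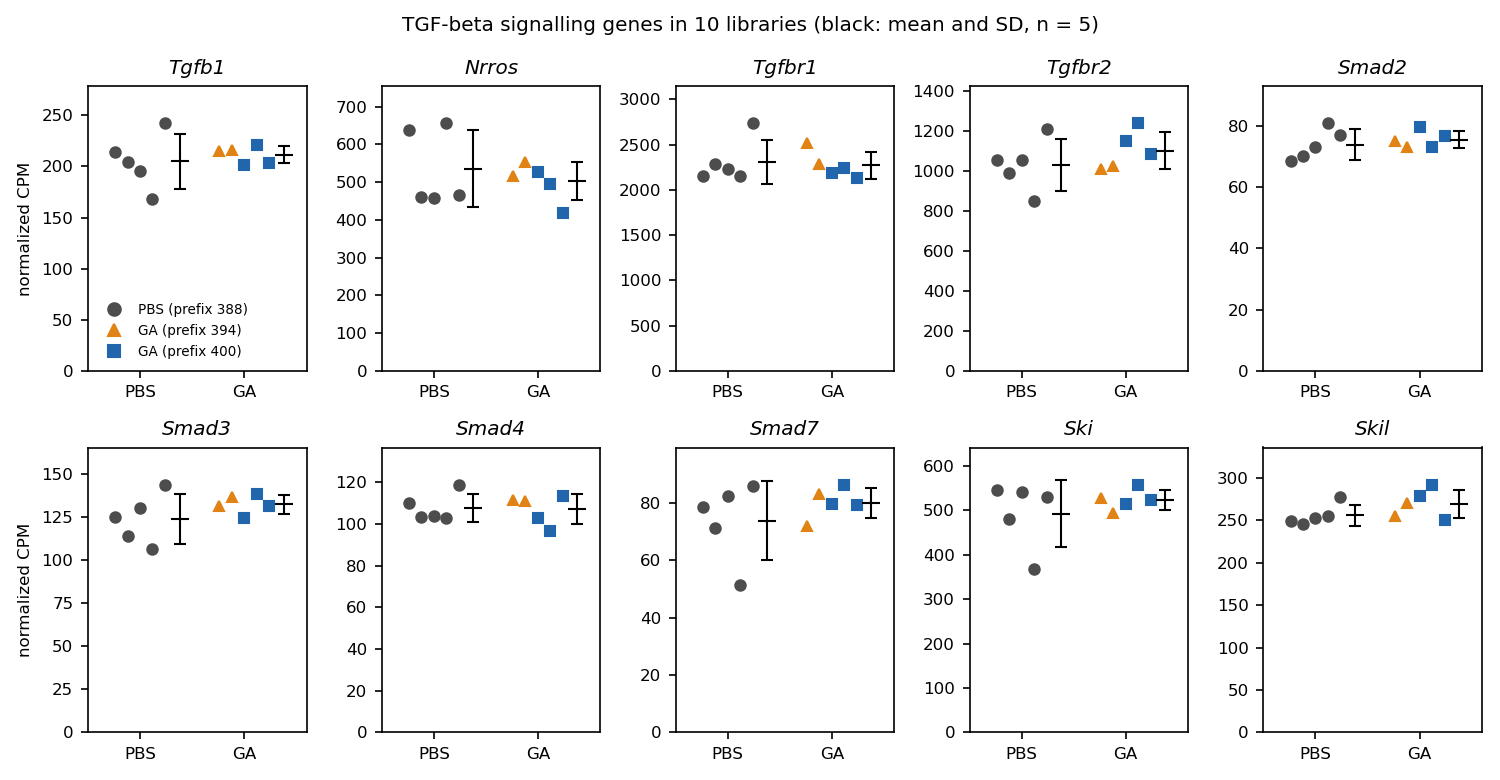
Normalized CPM of each member in each library (points, PBS 1 to 5 and GA 1 to 5 from left to right, with the title prefix by colour and shape) and the mean and SD of each group (black, n = 5). The groups overlap in all 10 panels, and PBS library 4 is the lowest for 5 members, most clearly *Smad7* at 51.4 CPM and *Ski* at 368 CPM.

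PBS library 4 was the lowest of the 10 libraries for 5 members (*Tgfb1*, *Tgfbr2*, *Smad3*, *Smad7* and *Ski*) and the highest for *Nrros* and *Smad2*. Over all genes tested, 19.8% were lowest and 20.6% highest in that library. PBS library 5 was the highest for 4 members (*Tgfb1*, *Tgfbr1*, *Smad3* and *Smad4*) and the lowest for 0, and GA library 4 was the highest for the other 4 (*Tgfbr2*, *Smad7*, *Ski* and *Skil*). Of all genes tested, 13.1% were highest and 15.1% lowest in PBS library 5, and 6.30% were highest in GA library 4. The spread of log2 CPM was larger with PBS than with GA for 8 of the 10 members, as it was for 69.2% of all genes tested. The coefficient of variation of *Smad7* was 18.5% with PBS and 6.68% with GA, and that of *Skil* was 4.86% and 6.32%. The within-group SD of log2 CPM lay below the median of all genes tested (0.219) for 8 members, and *Nrros* and *Smad7* were just above it. The members lie at the 81.0th percentile of mean CPM or higher, and their spread was not compared with that of genes at like levels.

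Levels were compared between genes as CPM per kb of merged exon, since longer transcripts gather more reads. *Tgfbr1* had the highest level of the members, with a median of 342 CPM per kb over the 10 libraries, and stood above *Tgfbr2* (129 CPM per kb) in all 10. *Tgfbr2* and *Nrros* (121 CPM per kb) did not differ beyond their spread, with *Tgfbr2* the higher in 6 libraries. *Ski* followed at 94.6 CPM per kb, below *Nrros* in all 10 libraries, and *Tgfb1* at 41.5 CPM per kb. *Smad4* at 28.8 and *Skil* at 26.3 CPM per kb overlapped, with *Smad4* the higher in 8 libraries. *Smad3* at 23.6, *Smad7* at 17.5 and *Smad2* at 8.43 CPM per kb ended the order and kept it in all 10 libraries. With the longest annotated transcript as the length, 6 of the 10 ranks were unchanged, *Nrros* passed *Tgfbr2*, and *Skil* passed *Smad4*. With this choice of length the level of *Tgfb1* was 81.3 CPM per kb, the largest proportional move among the members. Among all genes tested, *Tgfbr1* ranked at the 99.8th percentile of mean CPM and *Smad2*, the lowest of the members by that measure, at the 81.0th.

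**Figure D3:**
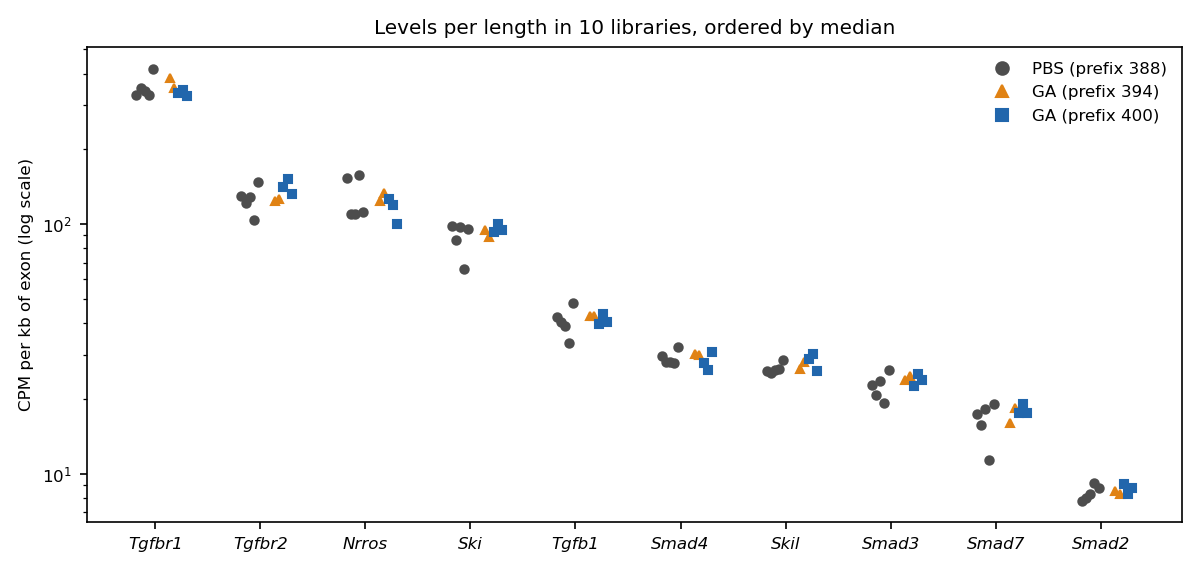
Level of each member as CPM per kb of merged exon on a log axis, in 5 PBS and 5 GA libraries, ordered by the median over all 10. *Tgfbr1* at a median of 342 CPM per kb is separate from the rest, and *Smad2* at 8.43 CPM per kb is the lowest.

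Ratios of partners within a library do not depend on how libraries are scaled. Partner pairs compared numbered 3, with exact permutation tests on log2 ratios of counts per kb. The ratio of *Tgfbr2* to *Tgfbr1* was 0.392, 0.346, 0.377, 0.315 and 0.352 in PBS libraries 1 to 5 and 0.320, 0.359, 0.419, 0.441 and 0.407 in GA libraries 1 to 5. The 3 GA libraries of prefix 400 lay above every PBS library, and the 2 of prefix 394 lay within the PBS range. The group means were 0.357 ± 0.0295 across PBS and 0.389 ± 0.0487 across GA libraries (SD, n = 5 each), a log2 difference of 0.12 (two-sided exact permutation test, *P* = 0.254, adjusted over the 3 ratios 0.762). This difference was 0.073 without GA library 4, 0.077 without PBS library 4 and 0.19 without GA library 1 (exact permutation test, *P* = 0.0635 for the last). The log2 difference from PBS was 0.25 for the GA libraries of prefix 400 alone and -0.07 for those of prefix 394 alone, given here as a description. The difference between the 2 prefixes was not tested. The ratio of *Smad3* to *Smad2* ran from 2.09 to 2.97 with PBS and from 2.48 to 3.01 with GA (exact permutation test, *P* = 0.611), with the lowest value in PBS library 4. The ratio of *Skil* to *Ski* ran from 0.262 to 0.399 with PBS and from 0.273 to 0.314 with GA (exact permutation test, *P* = 0.857). Its highest value again belonged to PBS library 4, and the next PBS library had 0.300.

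**Figure D4:**
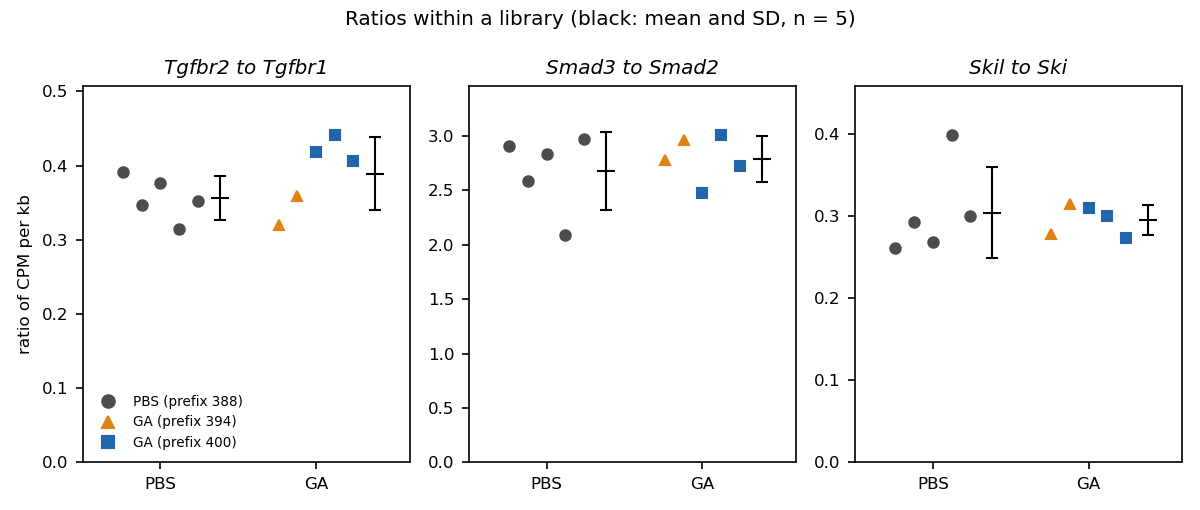
Ratios of CPM per kb between partner genes in each library (points, coloured by title prefix) with the mean and SD of each group (black, n = 5). For *Tgfbr2* to *Tgfbr1* the 3 GA libraries of prefix 400 (0.407 to 0.441) lie above all PBS libraries (0.315 to 0.392) and the 2 of prefix 394 do not.

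Around the members, 86 further genes of the pathway were examined in 7 lists, of which 69 passed the filter. None passed edgeR's test after adjustment over all genes, and none did with DESeq2 or limma-voom. At an unadjusted p-value under 0.05, 3 of the 69 (4.35%) were found in edgeR, against 5.75% of all genes tested. Estimates were higher with GA for 30 and lower for 39, with a median log2 fold change of -0.025.

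Of the 12 genes of other ligands, latency and activation, 6 passed the filter, 3 with a higher and 3 with a lower estimate, and none passed the test. The ligand gene *Tgfb2* was counted 0 to 60 times per library and *Tgfb3* 0 to 4 times, against 5434 to 8550 for *Tgfb1*. *Lrrc32* (GARP), which presents latent TGF-beta on regulatory T cells and is the relative of *Nrros*, was counted 0 to 14 times. The latent TGF-beta binding protein *Ltbp3* had 9.76 ± 2.33 CPM across PBS and 8.67 ± 1.61 CPM across GA libraries (SD, n = 5 each). The integrin subunit *Itgav*, a partner in releasing the ligand, had 240 ± 21.9 CPM across PBS and 246 ± 5.27 CPM across GA libraries (SD, n = 5 each). The log2 fold change of *Tgfb2* was 0.70 with a standard error of 0.79, and it ran from 0.21 without GA library 4 to 1.49 without PBS library 5, with 1.74 in limma-voom.

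Of the 6 receptors, co-receptors and receptor partners, 5 passed the filter, 4 with a higher and 1 with a lower estimate. The co-receptor *Tgfbr3* (betaglycan) was counted 0 to 4 times in a library, while *Eng* (endoglin) had 136 ± 7.28 CPM across PBS and 143 ± 8.80 CPM across GA libraries (SD, n = 5 each). The pseudoreceptor *Bambi* had log2 fold change 0.20 (standard error 0.27) at 4.33 ± 1.33 CPM (SD, n = 5) with PBS, and the estimate was 0.011 without GA library 4, 0.045 without PBS library 4 and 0.32 without GA library 2. *Fkbp1a*, whose product binds the type I receptor, had 106 ± 11.8 CPM across PBS and 99.9 ± 2.18 CPM across GA libraries (SD, n = 5 each).

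All 16 Smad regulators and co-factors passed the filter, 6 with a higher and 10 with a lower estimate. The coactivator *Crebbp* (CBP) had 82.3, 76.9, 82.3, 89.6 and 96.1 CPM in PBS libraries 1 to 5 and 74.5, 88.6, 65.4, 74.5 and 67.1 CPM in GA libraries 1 to 5. Of the GA libraries, 4 lay below every PBS library and GA library 2 lay within their range. Its log2 fold change was -0.21 (standard error 0.09, unadjusted *P* = 0.0380 and adjusted *P* = 0.854 in edgeR; exact permutation test, *P* = 0.0635), and the unadjusted p-value in edgeR was 0.104 without PBS library 5. With the GA libraries of prefix 394 alone its log2 fold change was -0.061, and with those of prefix 400 alone it was -0.30. The related coactivator *Ep300* (p300) had 152 ± 15.3 CPM across PBS and 141 ± 10.4 CPM across GA libraries (SD, n = 5 each), a log2 fold change of -0.11 that was -0.063 without GA library 3. *Tab2*, an adaptor of the TAK1 kinase, had a log2 fold change of -0.27 (standard error 0.15), which was -0.12 without PBS library 4, its highest library, and -0.50 and -0.12 with the GA libraries of prefix 394 and of prefix 400 alone. The repressor *Tgif2* had -0.26 (standard error 0.24), which was -0.14 without PBS library 2.

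In the branch of bone morphogenetic proteins (BMP) and activins, which shares SMAD4 with TGF-beta, 12 of 20 genes passed the filter, 4 with a higher and 8 with a lower estimate. *Bmpr2*, the type II receptor for BMPs, had 24.4, 34.5, 30.2, 42.1 and 29.3 CPM in PBS libraries 1 to 5 and 22.1, 24.4, 24.9, 25.5 and 21.5 CPM in GA libraries 1 to 5. Of the PBS libraries, 4 lay above all GA libraries, and PBS library 1 lay among them. Its log2 fold change was -0.44 (standard error 0.13, unadjusted *P* = 0.00372 and adjusted *P* = 0.847 in edgeR; exact permutation test, *P* = 0.0238), and it ranged from -0.52 to -0.32 on leaving out single libraries. *Smad1*, the BMP-responsive Smad, had the highest CPM of the list, with 125 ± 10.8 across PBS and 119 ± 4.76 across GA libraries (SD, n = 5 each). *Bmp2* was counted 9 to 82 times and had a log2 fold change of 0.81 (standard error 0.56), which ran from 0.34 without GA library 4 to 1.30 without PBS library 4 (unadjusted *P* = 0.0382 in edgeR).

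Genes that TGF-beta is known to induce in many cell types served as a readout, and 10 of 12 passed the filter, 3 with a higher and 7 with a lower estimate. *Pmepa1*, a target that in turn restrains the Smads, had 230 ± 20.1 CPM across PBS and 210 ± 14.4 CPM across GA libraries (SD, n = 5 each), and the log2 fold change was estimated at -0.13 (standard error 0.07; exact permutation test, *P* = 0.103). The cell cycle inhibitor *Cdkn1a* (p21) had 25.9 ± 5.39 CPM across PBS and 20.7 ± 3.43 CPM across GA libraries (SD, n = 5 each; log2 fold change -0.32, unadjusted *P* = 0.0479 and adjusted *P* = 0.865 in edgeR; exact permutation test, *P* = 0.119), and without PBS library 4 its log2 fold change was -0.22 (unadjusted *P* = 0.145 in edgeR). With the GA libraries of prefix 394 alone *Cdkn1a* had -0.57, and with those of prefix 400 alone -0.17. *Junb*, the most abundant gene of the list by CPM, had 251 ± 43.5 CPM across PBS and 224 ± 29.2 CPM across GA libraries (SD, n = 5 each). Its log2 fold change was -0.16, which was -0.059 without PBS library 4, its highest library at 321 CPM, and -0.25 without GA library 2 (unadjusted *P* = 0.0402 in edgeR).

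Among microglial genes known to depend on TGF-beta, all 12 passed the filter, and the lowest log2 fold change, -0.12, was that of *P2ry12*, the purinergic receptor of homeostatic microglia. *P2ry12* had 6890 ± 316 CPM across PBS and 6319 ± 506 CPM across GA libraries (SD, n = 5 each; exact permutation test, *P* = 0.0714; unadjusted *P* = 0.0600 and adjusted *P* = 0.872 in edgeR). Its log2 fold change ran from -0.15 without GA library 3 to -0.082 without GA library 2. It was negative in all 18 alternatives, and its unadjusted p-value was under 0.05 in 4 of them. The list held 5 higher and 7 lower estimates. Of the 8 genes known to rise in microglia that lack TGF-beta signalling, 5 had higher and 3 lower estimates. The lipid carrier *Apoe* had 5736 ± 866 CPM across PBS and 6384 ± 1074 CPM across GA libraries (SD, n = 5 each), the secreted phosphoprotein *Spp1* 137 ± 66.8 CPM across PBS and 112 ± 20.9 CPM across GA libraries (SD, n = 5 each), and the invariant chain *Cd74* 701 ± 273 CPM across PBS and 621 ± 130 CPM across GA libraries (SD, n = 5 each). The log2 fold change of *Apoe* was 0.15, and 0.053 without GA library 4, which had 8215 CPM. The log2 fold changes of *Spp1* and *Cd74* turned from -0.29 and -0.17 to 0.027 and 0.075 without PBS library 4.

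**Figure D5:**
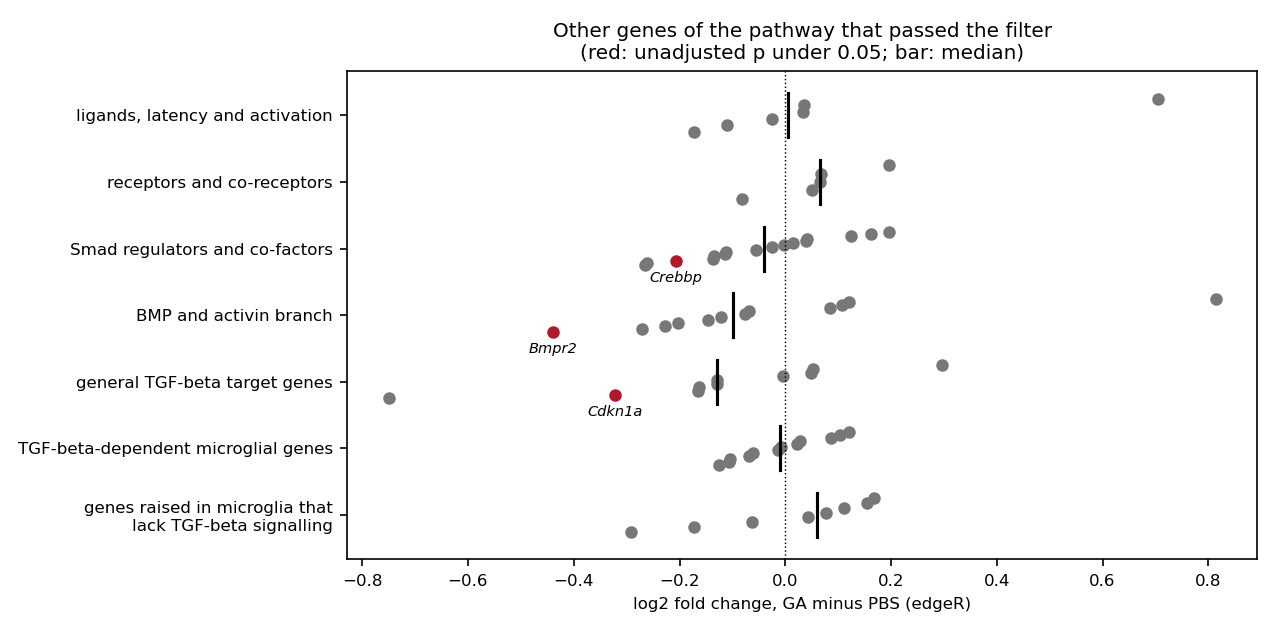
Log2 fold changes of GA against PBS in edgeR's fit for the 69 further genes of the pathway that passed the filter, by list, with the median of each list as a bar. The 3 genes with an unadjusted p-value under 0.05 (*Bmpr2*, *Crebbp* and *Cdkn1a*, red) lie below 0, and none passed after adjustment.

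For each member, the gene whose log2 CPM followed it most closely over the 10 libraries was found among 8692 genes with a mean of at least 10 CPM. *Smad7* went with *Mlec* (Pearson r = 0.980, n = 10 libraries) and *Ski* with *Rab27a* (r = 0.976), and without PBS library 4 these values were 0.889 and 0.817. *Tgfbr2* went with *Nfe2l1* (r = 0.966), *Tgfb1* with *Rfk* (r = 0.965), *Skil* with *Slc23a2* (r = 0.953) and *Smad2* with *Polr2d* (r = 0.941). For *Smad3* it was *Gabarapl1* (r = 0.937), for *Smad4* *0610040J01Rik* (r = 0.933), for *Nrros* *Tk2* (r = 0.923) and for *Tgfbr1* *Msh6* (r = 0.888). By ranks, *Tgfbr1* and *Msh6* had a Spearman rho of 0.624, against 0.818 to 0.952 for the other pairs. These values describe 10 libraries that share 2 treatments and are the highest among all genes considered.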

How the data were processed

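The authors deposited raw read counts per gene symbol for 10 libraries, and the submitters' processing notes name bcl2fastq 2.19.0, fastp 0.20.0, STAR 2.7.0f, Subread 1.6.4 with featureCounts and the build GRCm38.p6. The gene annotation and the strand setting are not given in the sources used here. Reads came from amplified cDNA without molecular identifiers, so counts are not independent molecules. Treatment was taken from the sample labels, and nothing says whether a library is 1 animal or a pool, so p-values measure the spread between these libraries.

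Genes were kept with filterByExpr (minimum count 10), normalized by TMM and tested for GA against PBS without covariates by the quasi-likelihood F-test of edgeR 4.0.16 (R 4.3.3), with Benjamini-Hochberg adjustment over all genes and a threshold of 0.05. Normalized CPM and log2(CPM + 0.1) were computed from the counts, and exact two-sided permutations (scipy 1.17.1) served for single values, where the smallest p-value is 0.00794 for 5 against 5. Exon lengths and positions were taken from GENCODE M21 (GRCm38). DESeq2 1.42.0, limma-voom (limma 3.58.1), other scalings and filters, each library left out, and each GA title prefix alone were alternatives. On counts simulated for this comparison, edgeR recovered 138 of 200 genes changed 2-fold, with 6 false calls. The members and lists were chosen with earlier results of these data known. The text names all members, the pathway genes with an unadjusted p-value under 0.05, and in each list the gene of highest CPM and the 2 of largest change, besides *Pmepa1*, *Tgfbr3* and *Eng* and the gene nearest to each member. Some items that this rule covers are not reported here. *Tgfb3* and *Lrrc32* were named after their values were seen.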

Additional observations from a re-analysis of the deposited data

Results flagged for a closer look

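In 48 groups of 5 libraries (the members, the 3 ratios and the summed marker lists, in each treatment), 4 had a library whose gap to its nearest neighbour was large against the range of its group, where chance alone gives this in about 1 of 20 groups. *Tgfbr1* in PBS library 5 had 2736 CPM, and the gap below it was 0.776 of the range. The ratio of *Skil* to *Ski* in PBS library 4 was 0.399, with a gap of 0.718 of the range. Endothelial markers summed to 50.2 CPM in PBS library 4, with a gap of 0.751, and B cell markers to 671 CPM in PBS library 1, with a gap of 0.809, a sum in which *Ighm* had a mean of 590 CPM over the 10 libraries.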

How the results depend on the processing

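Over 18 alternative settings, the 10 members gave 180 results, of which 168 kept the direction of the estimate and 12 turned, and none was called (lowest adjusted p-value 0.634). DESeq2 called 2 genes in all, *Gm1070* and *Dcstamp*, and edgeR called 0 to 1 on leaving out single libraries (1 without GA library 1, *Gm15920*; these 3 genes were named after their values were seen). Without a filter *Smad4* had 0.00029. With the GA libraries of prefix 394 alone *Nrros* had 0.0064, *Tgfbr1* 0.063, *Tgfbr2* -0.011, *Smad4* 0.052 and the log2 ratio of *Tgfbr2* to *Tgfbr1* -0.068. With those of prefix 400 alone this ratio was 0.25, where 3 libraries that lie above every PBS library fix the permutation p-value at its lowest, and *Cd74* had 0.023. On leaving out single libraries, the ranges were -0.018 to 0.12 for *Tgfb1*, -0.0012 to 0.13 for *Ski*, -0.062 to 0.050 for *Tgfbr1*, -0.030 to 0.033 for *Smad4*, -0.016 to 0.075 for *Itgav*, -0.44 to 0.027 for *Spp1*, -0.28 to 0.075 for *Cd74*, and -0.018 to 0.11 and -0.080 to 0.072 for the log2 ratios of *Smad3* to *Smad2* and of *Skil* to *Ski*. The cause was not tested. No paired analysis was possible because the labels number the libraries within a title prefix, and no prefix holds both treatments. Longest transcripts in place of merged exons kept 6 of the 10 ranks of level.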
